A study of Rattus norvegicus with 74 samples.

Results

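A group of 10 genes of excitation-contraction coupling and calcium release was followed by symbol through the count tables of whole muscle, isolated mitochondria and heart: Tmem38a, Tmem38b, Ryr1, Ryr2, Cacna1s, Stac3, Jph1, Jph2, Pln and Sln. Of these, 9 had a row by symbol among the 30560 genes of each table, and Pln was not analysed here. The group was chosen by name together with 1 measured value, the fall of Tmem38b with training in whole muscle, so every value of that contrast is given as a description. All rats were male wild-type Wistar Kyoto animals, 9 weeks old at sampling, and all drank water with 8% deuterium oxide. Exercise-trained rats (ExT) ran on a treadmill on 5 days per week for 4 weeks, starting at 5 weeks of age and building up to 60 min at 20 m/min. Sedentary rats (Sed) were placed on a treadmill that stood still, and tissue from both arms was collected 24 h after the final session. RNA came from the red inner gastrocnemius as whole skeletal muscle (SM), from mitochondria immunoprecipitated out of that muscle and digested with proteinase-K and RNase-A (MT), and from the left ventricle (LV). There were 15 rats per arm for SM and MT and 7 per arm for LV, 74 libraries from 30 rats, and the rat number ties the sample types of 1 animal together.

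In a muscle fibre, an action potential running into the transverse tubule moves the voltage sensor, the dihydropyridine receptor, and ryanodine receptors then release calcium from the sarcoplasmic reticulum. In skeletal muscle the voltage sensor opens the release channel through direct mechanical contact, whereas in the heart calcium entering through the voltage-gated channel triggers release. Junctophilins hold the tubule and reticulum membranes together, TRIC channels carry potassium as counter-ions for the released calcium, and small peptides such as sarcolipin and phospholamban restrain the pump that takes calcium back.

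The regions around the start sites of 6 of the genes are shown because these genes include the pairs that separated muscle from heart most widely (Cacna1s, Stac3, Ryr1 and Ryr2) and both TRIC channels. Each sequence runs from 250 bases before to 50 bases after the start in RefSeq for GRCr8, read 5′ to 3′ on the strand of the gene, and capitals mark each match to the E-box pattern CANNTG, the core bound by myogenic helix-loop-helix factors. Promoter entries matched 7 of the 9 genes analysed, and Jph1 and Sln had none.
Cacna1s, chr13:50045418-50045717, strand plus: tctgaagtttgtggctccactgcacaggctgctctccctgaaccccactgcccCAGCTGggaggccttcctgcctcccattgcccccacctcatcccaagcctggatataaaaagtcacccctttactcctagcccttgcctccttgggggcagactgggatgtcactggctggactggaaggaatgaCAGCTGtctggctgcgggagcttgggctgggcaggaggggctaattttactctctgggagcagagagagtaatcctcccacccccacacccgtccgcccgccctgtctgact
Stac3, chr7:65228225-65228524, strand plus: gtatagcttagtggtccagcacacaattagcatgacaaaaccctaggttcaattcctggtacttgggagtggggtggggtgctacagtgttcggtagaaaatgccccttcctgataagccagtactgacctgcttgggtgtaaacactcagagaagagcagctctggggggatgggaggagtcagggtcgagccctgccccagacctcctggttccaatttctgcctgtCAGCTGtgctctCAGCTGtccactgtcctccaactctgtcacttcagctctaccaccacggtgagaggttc
Ryr1, chr1:93551256-93551555, strand minus: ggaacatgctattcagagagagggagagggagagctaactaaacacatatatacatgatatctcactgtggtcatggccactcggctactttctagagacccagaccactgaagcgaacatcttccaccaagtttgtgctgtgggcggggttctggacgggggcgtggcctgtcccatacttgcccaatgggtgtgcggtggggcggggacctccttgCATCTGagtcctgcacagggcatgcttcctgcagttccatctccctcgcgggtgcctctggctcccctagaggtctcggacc
Ryr2, chr17:63081277-63081576, strand plus: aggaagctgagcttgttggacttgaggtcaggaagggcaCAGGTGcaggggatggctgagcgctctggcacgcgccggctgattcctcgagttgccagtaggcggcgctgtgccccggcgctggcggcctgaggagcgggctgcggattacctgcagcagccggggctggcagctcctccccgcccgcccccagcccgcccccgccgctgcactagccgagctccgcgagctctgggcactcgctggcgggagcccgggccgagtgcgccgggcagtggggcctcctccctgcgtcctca
Tmem38a, chr16:17307655-17307954, strand minus: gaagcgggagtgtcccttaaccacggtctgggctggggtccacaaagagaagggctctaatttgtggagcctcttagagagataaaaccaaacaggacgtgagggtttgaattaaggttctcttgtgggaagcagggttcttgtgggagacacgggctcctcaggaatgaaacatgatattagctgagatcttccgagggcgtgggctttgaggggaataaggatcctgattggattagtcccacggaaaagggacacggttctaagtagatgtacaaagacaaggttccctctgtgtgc
Tmem38b, chr5:73255412-73255711, strand plus: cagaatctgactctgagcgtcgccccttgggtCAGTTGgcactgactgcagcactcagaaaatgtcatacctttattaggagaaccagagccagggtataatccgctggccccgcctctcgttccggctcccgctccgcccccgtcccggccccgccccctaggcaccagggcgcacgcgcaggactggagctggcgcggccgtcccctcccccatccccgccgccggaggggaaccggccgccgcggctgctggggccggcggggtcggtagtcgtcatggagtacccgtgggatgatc
Cacna1s and Stac3 each held 2 copies of CAGCTG, the palindromic form of the E-box, and had no other CANNTG. Ryr1, Ryr2 and Tmem38b had 1 CANNTG each and no CAGCTG, and the windows of Tmem38a and Jph2 held none. Searched on both strands, at least 1 CANNTG occurred in 72.1% and at least 1 CAGCTG in 15.1% of 33469 rat promoter windows of the same length, every CAGCTG also being a CANNTG. The windows of Ryr2 and Tmem38b were rich in CG dinucleotides, with 28 and 29 against a median of 7 over all windows, while those of Cacna1s and Stac3 had 4 and 3. These matches describe letters in the windows and were not related to binding.

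Levels below are CPM over the counts on nuclear-encoded genes (nuclear CPM), and fold changes are log2 values from edgeR's quasi-likelihood test with its trimmed-mean scaling, with p-values adjusted over all genes tested by the Benjamini-Hochberg method and called at 0.05. Gene lengths were not used, so levels are compared between samples and not between genes. An SM library held between 19477976 and 39401323 counts, an MT library between 530397 and 9988027, and an LV library between 54645657 and 75758777. Genes of the mitochondrial genome took 22.1 to 35.9% of them in SM, 12.9 to 95.4% in MT and 39.9 to 50.7% in LV. On nuclear-encoded genes an MT library held only 430162 to 1055433 counts. Summed ventricular cardiomyocyte markers lay between 45900 and 58200 nuclear CPM in LV and between 21.2 and 121 in SM, and 7 fast-fibre markers between 80200 and 147000 in SM and between 2.33 and 6.47 in LV. Odorant and vomeronasal receptor genes, 1260 in all and not known for a role in muscle, took 1.37 to 1.98% of nuclear counts in MT against at most 0.00158% in SM and 0.00246% in LV. RNA input differed between all sample types (50 ng SM, 10 ng MT, 100 ng LV) and the library kit between LV and the other two, so neither can be told apart from sample type there. In these bulk samples, fewer cells of a type and less RNA per cell cannot be told apart.

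**Figure D1:**
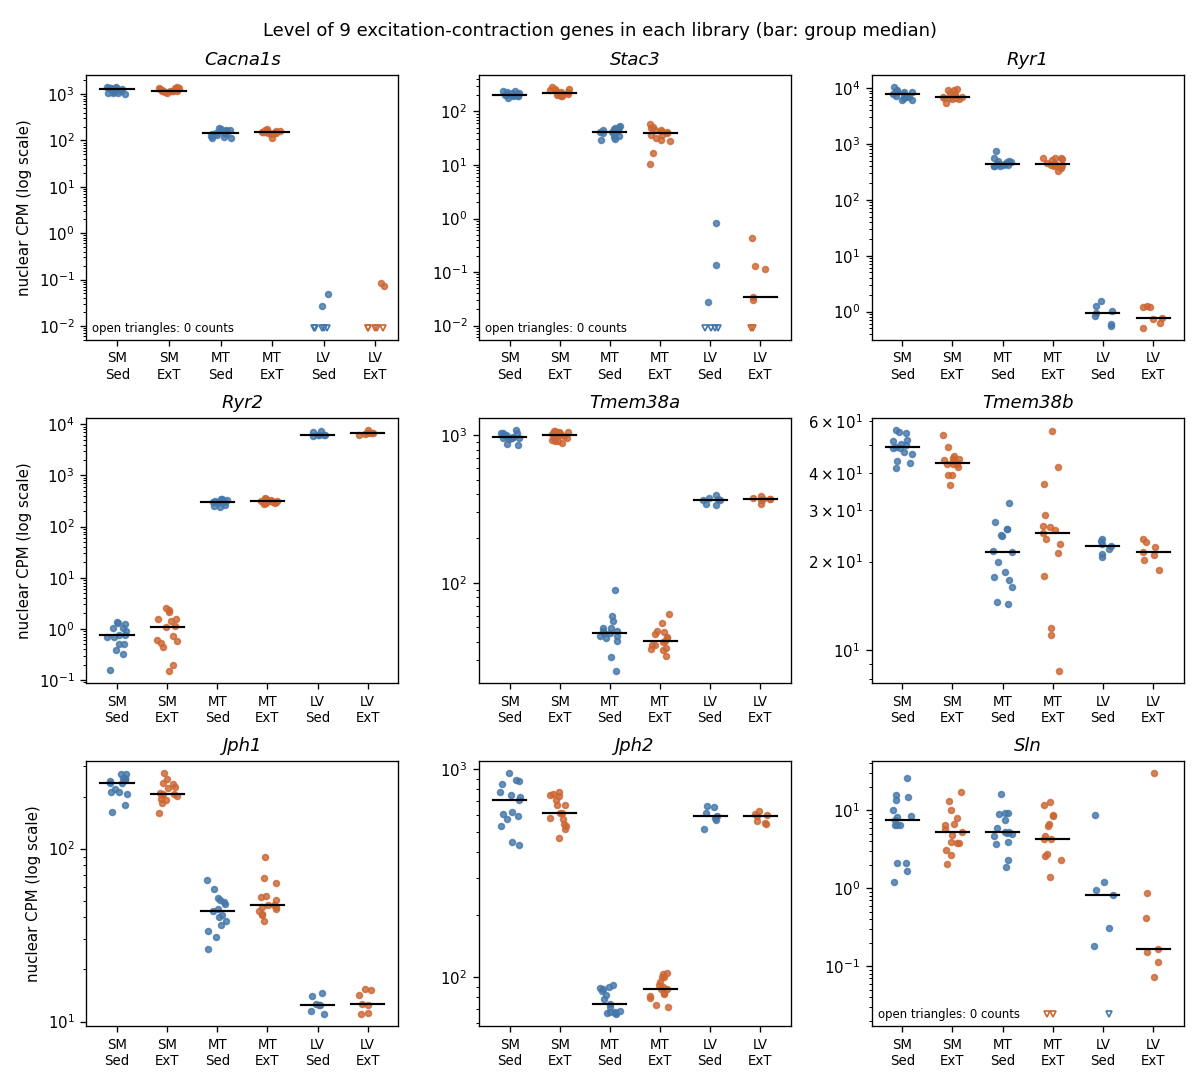
Level of each of the 9 genes in every library, as nuclear CPM on a log scale, by sample type and arm. Each point is 1 library, a black bar is a group median above 0, and open triangles at the foot are libraries with 0 counts. Cacna1s, Stac3 and Ryr1 stand high in SM and near the foot in LV, and Ryr2 does the reverse.

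Cacna1s, Stac3 and Ryr1 were high in muscle and at or near 0 in the heart, and Ryr2 did the reverse. In LV of sedentary rats all 9 genes passed the test against SM of the same 7 rats, 8 lower and 1 higher, where 78.7% of 14367 genes tested were called (40% higher, 38.6% lower). In trained rats 8 of the 9 passed, 7 lower and 1 higher, beside 79.3% of 14338 genes (39.7% higher, 39.5% lower). DESeq2 called 8 of the 9 in each arm, 7 lower and 1 higher, beside 11379 of 14367 and 11440 of 14338 genes. Neither fit paired the libraries of 1 rat. With most genes called, the counts do not set these genes apart, and the sizes of the differences carry the description. The share of all genes whose LV and SM ranges did not meet was not counted, so separation below is not read as particular to the members.

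Ryr1, the release channel of skeletal muscle, had 6050, 7830 and 10500 nuclear CPM as lowest, median and highest value in SM_Sed, and 5360, 7040 and 9410 in SM_ExT. In LV the corresponding values were 0.548, 0.928 and 1.52 in sedentary and 0.512, 0.773 and 1.25 in trained rats. No LV library came near the SM range, and every LV library nevertheless held at least 21 Ryr1 counts. Summed over the 7 rats of each arm, Ryr1 was 7740-fold higher in SM than in LV of sedentary rats (95% exact interval 6840 to 8790, counting error only) and 9040-fold higher in trained rats (7940 to 10300). The fitted log2 differences were -13.48 (SE 0.242) and -13.62 (SE 0.252), with adjusted p of 1.18e-19 and 1.86e-19 in edgeR's test.

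Ryr2, the release channel of the heart, mirrored this. Its lowest, median and highest levels in LV were 5800, 6120 and 7440 nuclear CPM in sedentary and 6290, 6730 and 7680 in trained rats. SM held 0.155, 0.744 and 1.34 in sedentary and 0.151, 1.06 and 2.53 in trained rats, from 2 to 52 counts per library. Again the ranges did not meet. The pooled excess in LV was 8210-fold (6740 to 10100) in sedentary and 6360-fold (5440 to 7480) in trained rats, again with counting error only. The log2 differences were 12.44 (SE 0.208) and 12.15 (SE 0.344). The ratio of Ryr2 to Ryr1 counts within a library, where no scaling enters, had a median of 0.000105 in SM_Sed and 6640 in LV_Sed, and of 0.000157 in SM_ExT and 8580 in LV_ExT.

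Cacna1s, the pore and voltage-sensing subunit of the skeletal dihydropyridine receptor, was the member with the widest gap. It had 1030, 1260 and 1410 nuclear CPM in SM_Sed and 1060, 1200 and 1440 in SM_ExT. Of 7 LV_Sed libraries 5 had 0 counts and the other 2 had 3 counts in all, and of 7 LV_ExT libraries 5 had 0 and the others 6 in all. The pooled ratio of SM to LV was 103000 (95% exact interval 35300 to 500000, counting error only) in sedentary and 54400 (25000 to 148000) in trained rats. With so few LV counts the fitted log2 differences, -16.69 and -15.95, rest on edgeR's prior count. All 7 fast-fibre markers were at or near 0 beside it in LV, the highest being Tnnt3 with 1.86 to 5.18 nuclear CPM, and Myh4, which encodes a fast myosin, was at 0 in 4 of 7 LV_Sed libraries and 1 of 7 LV_ExT libraries.

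Stac3, an adaptor that the voltage sensor needs to reach the tubule membrane and act on Ryr1, went the same way. Its lowest, median and highest levels were 182, 204 and 243 nuclear CPM in SM_Sed and 197, 223 and 289 in SM_ExT. LV_Sed had 40 counts in 7 libraries, 34 of them in rat 20, and 4 libraries had 0. LV_ExT had 29 counts, 18 of them in rat 17, and 2 libraries had 0. Both libraries were apart from the rest of their group, at 0.808 and 0.439 nuclear CPM. The pooled ratio of SM to LV was 1350 (990 to 1890) in sedentary and 1930 (1340 to 2880) in trained rats. These intervals hold counting error only and leave out the spread between animals, which is wide here. The log2 differences of -10.92 (SE 0.449) and -11.35 (SE 0.319) became -13.17 without rat 20 and -12.42 without rat 17. Fast-fibre markers summed to 5.16 nuclear CPM in the LV library of rat 20 and to 2.88 in that of rat 17, neither of them the highest of its arm. Some other muscle transcripts were highest in rat 20 among sedentary hearts: Ryr1 with 64 counts, Cacna1s with 2 counts, and the slow troponin genes Tnni1 and Tnnt1 at 5.37 and 0.689 nuclear CPM. The other slow-fibre markers were not: Myh7 was highest in rat 29, Myl2 and Myl3 in rat 16, Tnnc1 and Myoz2 in rat 30 and Tpm3 in rat 31. Summed slow-fibre markers were 21156 nuclear CPM in rat 20, where LV_Sed ran from 19000 to 23800. In rat 17 Ryr1 was the lowest of the trained hearts, at 21 counts, and Cacna1s had 3. Over the 14 LV libraries Cacna1s and Stac3 had r of 0.693, from 9 Cacna1s counts in all. The part of other muscle RNA in the Stac3 values was not tested.

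The junctophilins parted company. Jph1, the junctophilin best known from skeletal muscle, had 163, 239 and 272 nuclear CPM in SM_Sed against 11, 12.5 and 14.7 in LV_Sed, and 162, 207 and 273 in SM_ExT against 11.1, 12.6 and 15.3 in LV_ExT. No LV library reached the SM range, and the log2 differences were -4.69 (SE 0.11) and -4.57 (SE 0.123). Jph2, the junctophilin that the heart relies on and skeletal muscle also makes, had 430, 713 and 957 nuclear CPM in SM_Sed and 513, 595 and 668 in LV_Sed, with 469, 616 and 781 in SM_ExT and 548, 599 and 631 in LV_ExT. The Jph2 ranges overlapped, and its LV level lay above the SM level of the same rat in 3 of 7 sedentary and 1 of 7 trained animals. Its log2 differences of -0.68 (SE 0.13, adjusted p 9.51e-05 in edgeR's test) and -0.70 (SE 0.0858, adjusted p 3.84e-07) depend on how libraries are scaled. With totals of nuclear-encoded counts in place of the trimmed mean they became -0.12 (adjusted p 0.329) and -0.21 (adjusted p 0.0175), a setting that moved the median of all genes to 0.60 in sedentary and 0.50 in trained rats and the share of higher genes among those called from 50.9 to 74.6% and from 50.1 to 71.7% (62.7 and 60% with plain library totals). Within libraries, the median ratio of Jph2 to Jph1 counts was 2.80 in SM_Sed and 45.9 in LV_Sed, with 2.84 and 45.5 in trained rats.

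Both TRIC channels were lower in LV, by a similar factor. Tmem38a, the TRIC-A channel most abundant in striated muscle, had 863, 981 and 1090 nuclear CPM in SM_Sed against 338, 366 and 395 in LV_Sed, and 886, 1010 and 1070 in SM_ExT against 342, 370 and 391 in LV_ExT. Tmem38b, the more widely expressed TRIC-B, had 41.7, 48.9 and 56.0 in SM_Sed against 20.7, 22.6 and 23.9 in LV_Sed. For both genes every LV library lay below every SM library of the same rats, a separation not counted over all genes. The log2 differences of Tmem38a were -1.95 (SE 0.0729) and -1.89 (SE 0.0709), and those of Tmem38b were -1.68 (SE 0.0701) and -1.53 (SE 0.0798), all with adjusted p of at most 9.57e-13 in edgeR's test. The within-library ratio of Tmem38a to Tmem38b had a median of 16.3 in LV_Sed and 16.9 in LV_ExT, against 19.9 in SM_Sed and 23.6 in SM_ExT.

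**Figure D2:**
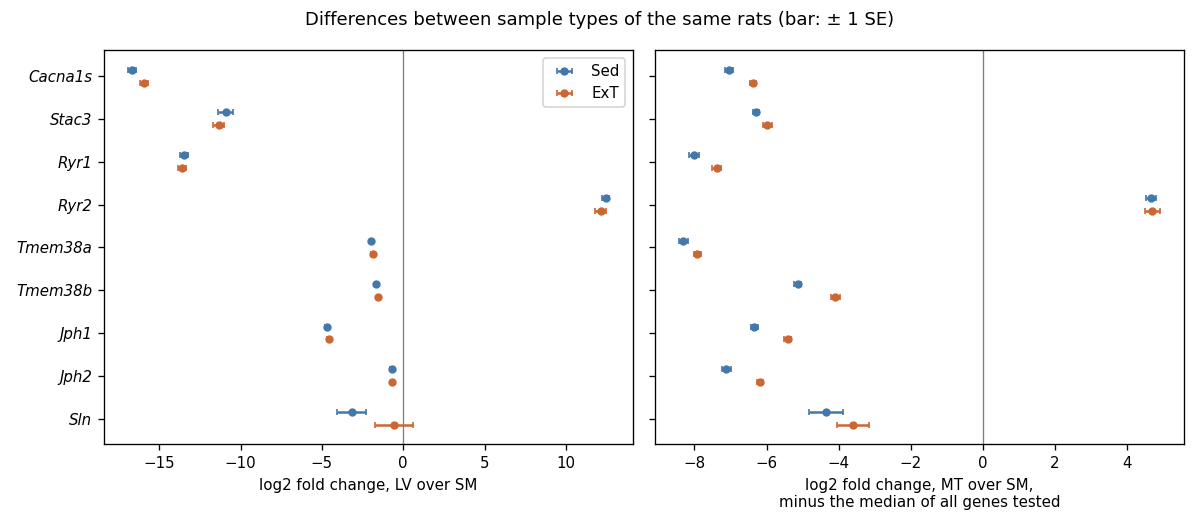
Log2 fold changes of LV over SM (left) and of MT over SM less the median of all genes tested (right), for sedentary and trained rats, from edgeR; bars are 1 SE on either side. In both panels Ryr2 is the 1 gene to the right of 0, and the LV bars of Sln are the widest.

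Sln encodes sarcolipin, a small inhibitor of the reticulum calcium pump that in the heart is known chiefly from the atria. It had 1.2, 7.58 and 26 nuclear CPM in SM_Sed and 2.05, 5.24 and 17.2 in SM_ExT. Its coefficient of variation among animals was 76.4 and 65.3%, beside 47.4 and 68.3% for Ryr2 and at most 23.5% for the other members. The 7 LV_Sed libraries, in order of rat number, held 0, 334, 35, 35, 40, 7 and 11 counts. The 7 LV_ExT libraries held 33, 3, 5, 16, 1000, 6 and 4. Rat 19 in the sedentary and rat 26 in the trained arm therefore stood far above all others, at 8.72 and 29.7 nuclear CPM against group medians of 0.832 and 0.168.

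Sln was lower in LV than in SM of sedentary rats by -3.17 on the log2 scale (SE 0.891, adjusted p 0.00556 in edgeR's test), with 6 of 7 LV libraries below the level of the same rat's muscle. In trained rats the difference was -0.58 (SE 1.15, adjusted p 0.655), also with 6 of 7 rats lower in LV. Without the LV library of rat 26 it was -4.39 (adjusted p 3.17e-08), leaving out any other LV library of trained rats gave adjusted p from 0.784 to 0.8, and with rat number as a block over all libraries it was -3.47 (adjusted p 0.0347). Without rat 19 the sedentary difference was -4.80 (adjusted p 3.35e-05).

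Atrial markers stood highest in the same 2 hearts. The summed level of Myl4, Myl7 and Nppa ran from 51.1 to 3420 nuclear CPM over the 14 LV libraries, with a median of 130, and was 1050 in rat 19 and 3420 in rat 26. All 3 markers were highest in those libraries within their arms: Myl7, an atrial myosin light chain, reached 354 and 1190 against medians of 45.8 and 10.6, and Myl4 reached 115 and 428 against 2.28 and 2.62. No marker of the list was at 0 in any LV library. Over the 14 libraries log2 Sln and log2 atrial markers had Pearson's r of 0.714 (permutation p 0.00727, adjusted over 2 relations 0.00727) and Spearman's rho of 0.477 (permutation p 0.0878, adjusted 0.0878), both two-sided. Without the 2 libraries farthest from the median r was 0.0715 (permutation p 0.828), so the relation rests on rats 19 and 26. Rat 18 had the next highest marker level, 844, and 5 Sln counts. Within arms r was 0.68 (exact permutation p 0.0907, n = 7) in sedentary and 0.753 (exact permutation p 0.0655, n = 7) in trained rats. The part of atrial tissue in the Sln values was not tested.

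In whole muscle Sln followed the slow-fibre genes. The summed level of 8 markers, among them Myh7 (slow myosin) and Tnni1 (slow troponin I), ran from 5700 to 40200 nuclear CPM over the 30 SM libraries. Pearson's r with log2 Sln was 0.727 (permutation p 1e-05, adjusted 2e-05) and Spearman's rho 0.679 (permutation p 7e-05, adjusted 0.00014), two-sided, where 1e-05 is the smallest p the 100000 resamples can give. Without the 2 libraries farthest from the median r was 0.63. It was 0.862 in sedentary and 0.689 in trained rats, and 0.718 among rats 2 to 16 and 0.757 among rats 17 to 32, so it held within each arm and each range of rat numbers.

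**Figure D3:**
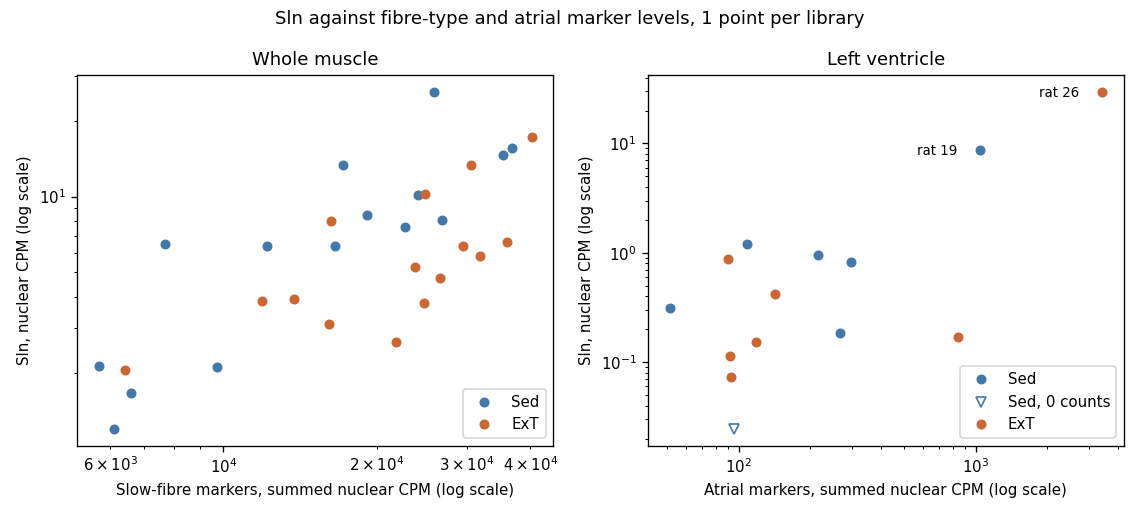
Sln (nuclear CPM, log scale) against summed slow-fibre markers in the 30 SM libraries (left) and against summed atrial markers in the 14 LV libraries (right), 1 point per library. The SM points rise together in both arms, while on the right rats 19 and 26 lie apart from 12 libraries that show no slope.

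For most of these genes the training differences were far smaller than the differences between muscle and heart. In SM, Tmem38b had 41.7, 48.9 and 56.0 nuclear CPM in sedentary and 36.3, 43.4 and 53.7 in trained rats, with means of 49.2 ± 4.27 and 43.7 ± 4.11 (SD, n = 15 each). The ranges overlapped widely: 13 of 15 trained rats lay below the sedentary median and 3 below the lowest sedentary rat. The fitted log2 difference was -0.23 (SE 0.0515), between -0.25 and -0.21 when any 1 library was left out. Among rats 2 to 16 it was -0.29 and among rats 17 to 32 it was -0.17, with the highest trained level, 53.7 in rat 18, in the second range. Marker lists had training differences of like size in SM, none of them called. The share of all genes at an unadjusted p under 0.05 was not computed, so the counts in parentheses are not read against it. The 7 fast-fibre markers had a median log2 difference of -0.27 (6 at an unadjusted edgeR p under 0.05), 4 endothelial markers 0.21 (4), 4 smooth muscle markers 0.45 (4) and 8 slow-fibre markers 0.34 (0), with 0 called by edgeR and 0 by DESeq2. Among the fast-fibre markers Myh2 had a higher median in SM_ExT, 17900 nuclear CPM against 12700 in SM_Sed. The others had lower medians in SM_ExT. Summed levels of the lists overlapped between arms. Fast-fibre markers had 80600 to 147000 nuclear CPM in SM_Sed and 80200 to 122000 in SM_ExT. Endothelial markers had 349 to 818 and 548 to 859, and slow-fibre markers 5700 to 36800 and 6420 to 40200. None of these markers was at 0 in any SM library. Their part in the training differences of the members was not tested. Tmem38b was 1 of 9 members past the threshold, which is why it was chosen, beside 0.206% of 13570 genes tested (0.184% higher, 0.0221% lower). The count was 0 with no filter on low counts, beside 26 of 24125 genes, and with rats 17 to 32 alone, beside 1 of 13662. With rats 2 to 16 alone it was 1, beside 396 of 13423 genes (290 higher, 106 lower). It was also 0 without any 1 of 22 of the 30 libraries. With totals of nuclear-encoded counts it was 0 too, where Tmem38b had -0.17 and all 48 called genes were higher in place of 25 of 28.

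Tmem38a, its paralogue, had a log2 difference of -0.04 (SE 0.0522) in SM. Its ratio to Tmem38b within a library had a median of 19.9 (17.4 to 22.9) in sedentary and 23.6 (17.8 to 26.8) in trained muscle. The muscle-type coupling genes upstream, Cacna1s and Stac3, had log2 differences of -0.07 (SE 0.0753) and 0.05 (SE 0.0555). Ryr1 had -0.14 (SE 0.102), Jph1 -0.18 (SE 0.0835), Jph2 -0.19 (SE 0.112) and Sln -0.47 (SE 0.365), the last with ranges of 1.2 to 26 and 2.05 to 17.2 nuclear CPM. The sign was not the same in both ranges of rat numbers for 4 genes. Among rats 2 to 16 and rats 17 to 32 respectively, Ryr1 had -0.38 and 0.08, Cacna1s -0.20 and 0.06, Jph2 -0.41 and 0.005, and Sln 0.34 and -1.34. The median over the 9 genes was -0.14, beside -0.01 over all genes tested.

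Ryr2 had the largest positive value in SM, 0.51 (SE 0.307), from very low levels. Of 15 trained rats 6 lay above the highest sedentary rat and 1 below the lowest. The trained library with most Ryr2, rat 22 at 2.53 nuclear CPM, also had the highest summed smooth muscle markers, 729, rat 13 with 611 had 2.14, and rat 18 with 417 had 2.39. Rats 10, 25, 26 and 27 had more marker signal than rat 18, from 422 to 479, with Ryr2 at 1.14, 1.44, 1.53 and 0.594. The 4 smooth muscle markers summed to 132 to 460 in SM_Sed and 292 to 729 in SM_ExT, none of them at 0 in any SM library. Of 8546 other genes, those most like Ryr2 over the 30 SM libraries, centred within arms, were Myh11 (r = 0.751), Tagln (0.678) and Lrch1 (0.646). Myh11 and Tagln are on the smooth muscle list. The part of these markers in the Ryr2 values was not tested. Summed ventricular markers were 21.2 to 95.1 in SM_Sed and 23.9 to 121 in SM_ExT.

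In MT, 8 of the 9 genes were tested and 0 were called, beside 0% of 19281 genes. DESeq2 also called 0, and 1 gene had an unadjusted edgeR p under 0.05. That gene was Jph2, with 66.4, 74.7 and 91.8 nuclear CPM in sedentary and 72.1, 87.7 and 104 in trained rats and a log2 difference of 0.21 (SE 0.0846, adjusted p 1). Of 15 trained libraries 5 lay above the highest sedentary one. Tmem38b, at 4 to 40 counts per library, had 14.3, 21.6 and 31.6 nuclear CPM in MT_Sed and 8.49, 25.1 and 55.7 in MT_ExT and a difference of 0.28 (SE 0.169). Its approximate 95% interval at this depth was -0.05 to 0.61.

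In LV, 7 genes were tested and 0 were called, beside 0% of 14488 genes, with 0 at an unadjusted p under 0.05 and 0 by DESeq2. Ryr2 had 5800, 6120 and 7440 nuclear CPM in sedentary and 6290, 6730 and 7680 in trained hearts. No trained heart lay below the sedentary median, and the log2 difference was 0.13 (SE 0.0744, adjusted p 0.817 in edgeR's test). Tmem38b had 20.7, 22.6 and 23.9 in LV_Sed and 18.8, 21.5 and 23.9 in LV_ExT, and its difference of -0.01 (SE 0.0601) has an approximate 95% interval of -0.13 to 0.11. For Sln the difference of 1.37 (SE 1.45) ran from -2.50 without rat 26 to 3 without rat 19. Jph2 had 0.01 (SE 0.0665), Tmem38a 0.06 (SE 0.055) and Jph1 0.10 (SE 0.0924).

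Whether training acted differently between sample types was tested as an interaction. Tmem38b was left aside, since its SM change chose it. None of the other members was called for MT against SM, beside 0.0181% of 27684 genes (0.00361% higher, 0.0144% lower). None was called for LV against SM, beside 0% of 15049 genes. DESeq2 also called none of these members, beside 28 of 27684 and 1 of 15049 genes. At an unadjusted edgeR p under 0.05 there were Jph1 and Jph2 for MT against SM, and 0 for LV against SM. The differences in training effect between MT and SM were 0.38 (SE 0.14, adjusted p 0.423) for Jph2 and 0.36 (SE 0.145, adjusted p 0.472) for Jph1. For Tmem38b, whose SM change chose it, the values stand side by side without a test: -0.23 in SM, 0.28 in MT and -0.01 in LV.

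**Figure D4:**
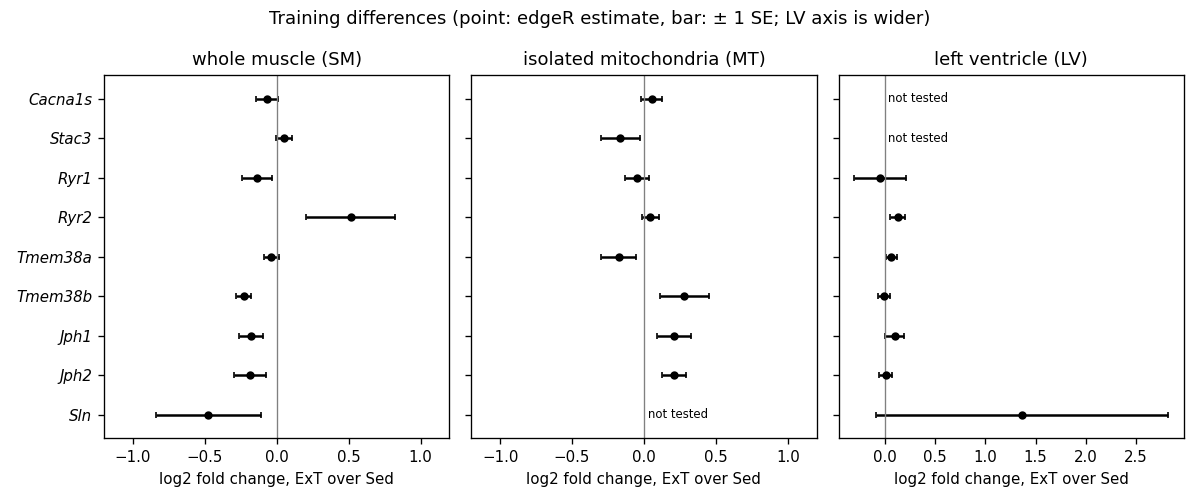
Log2 fold change of trained over sedentary rats for each gene in SM, MT and LV, from edgeR with bars of 1 SE on either side; the LV axis is wider, and genes too low to test are named so. Tmem38b lies at -0.23 in SM, 0.28 in MT (from 4 to 40 counts per library) and -0.01 in LV, and the Sln bar in LV is the widest.

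In the mitochondrial preparation the muscle-specific members were strongly depleted and Ryr2 was not. All 9 genes passed the test of MT against SM in both arms, 8 lower and 1 higher, beside 94.8% of 22842 genes in sedentary rats (61.7% higher, 33.1% lower) and 94.3% of 21312 in trained rats (59.3% higher, 35% lower). The median gene was 1.81 higher in MT in sedentary and 1.31 higher in trained rats, so differences are given less that median. Such values place a gene against the median gene and are not the size of its fall in nuclear CPM. With totals of nuclear-encoded counts the median was 4.45 and 4.28, and the share higher among called genes rose from 65.1 to 90.1% and from 62.9 to 89.6% (86.2 and 86.5% with plain library totals). MT and LV were both compared with SM, partly in the same libraries.

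Tmem38a had the deepest depletion in MT. Its 25.3, 45.7 and 89.4 nuclear CPM in MT_Sed and 32.0, 40.4 and 61.3 in MT_ExT were far below the SM range. Its SM level exceeded the MT level of the same rat by a median of 20.9-fold in sedentary and 24.5-fold in trained rats. Its difference less the median was -8.31 in sedentary and -7.92 in trained rats. Ryr1 fell to 400, 438 and 744 in MT_Sed and 324, 430 and 558 in MT_ExT, with -8.01 and -7.39. Jph2 had -7.11 and -6.18, Cacna1s -7.03 and -6.38, Jph1 -6.33 and -5.41, and Stac3 -6.29 and -5.98. For these 6 genes no MT library reached the SM range in either arm. The share of all genes so separated between MT and SM was not counted, so separation is not read as particular to the members.

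Tmem38b and Sln were depleted least among the genes that were lower. Their SM levels were also the lowest of these genes, at medians of 48.9 and 7.58 nuclear CPM in SM_Sed. In SM_ExT the medians were 43.4 and 5.24. The 1260 receptor genes took 1.37 to 1.98% of nuclear counts in MT. How far low SM levels and background counts in MT set the differences of Tmem38b and Sln was not tested. Tmem38b had -5.14 and -4.10 less the median, its SM level exceeding the MT level of the same rat by a median of 2.26-fold in sedentary and 1.80-fold in trained rats, and 1 of 15 trained rats had more in MT than in SM. When all libraries were thinned to the smallest total its trained difference was -1.28 (adjusted p 0.138 in edgeR's test). Sln had -4.34 and -3.61 less the median, yet its level was above that of SM in 6 of 15 rats in each arm. Its SM level exceeded the MT level of the same rat by a median of only 1.11-fold in sedentary and 1.12-fold in trained rats. These values come from 0 to 14 counts per MT library. With totals of nuclear-encoded counts Sln differed by -0.41 (adjusted p 0.423) and -0.23 (adjusted p 0.633), so its call depends on the scaling.

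Ryr2 was the exception, at 239, 304 and 352 nuclear CPM in MT_Sed and 282, 310 and 365 in MT_ExT. The ratio of MT to SM within a rat had a median of 396 over 15 sedentary and 274 over 15 trained rats, and no MT library fell into the SM range. The log2 difference was 6.47 (SE 0.139) and 6.01 (SE 0.204), or 4.66 and 4.70 less the median. The Ryr2 to Ryr1 ratio in MT had a median of 0.689 in sedentary and 0.690 in trained rats, between the muscle and heart values. Beside it in MT stood the receptor genes (1.37 to 1.98% of nuclear counts), ventricular markers at 278 to 434 nuclear CPM against 21.2 to 121 in SM, and Pax7, a satellite-cell gene, at 16.4 to 61.0 against 3.90 to 9.34. The part of these background counts in the Ryr2 value was not tested.

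Across the 30 SM libraries, with each arm centred on its mean, several members moved together. Ryr1 and Cacna1s had r of 0.908, Jph1 had 0.826 with Ryr1, 0.825 with Jph2 and 0.824 with Cacna1s, and Jph2 had 0.74 with Ryr1. Sln ran against the junctophilins, with -0.795 for Jph2 (-0.776 in sedentary and -0.844 in trained rats) and -0.684 for Jph1. Tmem38b had no r above 0.332 (Jph1) over both arms, and 0.24 with Tmem38a. Within arms its r was 0.513 with Jph1, 0.495 with Tmem38a, 0.471 with Stac3 and -0.457 with Sln in sedentary rats, and 0.137, -0.0401, -0.442 and 0.137 in trained rats, a difference that was not tested. All these libraries share their scaling, and the mitochondrial-genome share of a library had r of -0.815 with Ryr1, -0.782 with Cacna1s, -0.721 with Jph2, -0.71 with Jph1 and 0.553 with Sln, against -0.0172 with Tmem38b. Its part in the covariation was not tested. In the 14 LV libraries Ryr2 had r of 0.763 with Jph2 (0.811 in sedentary and 0.658 in trained hearts) and 0.716 with Tmem38a (0.928 and 0.292). The mitochondrial-genome share had r of -0.431 with Ryr2, -0.56 with Jph2 and 0.168 with Tmem38a there.

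**Figure D5:**
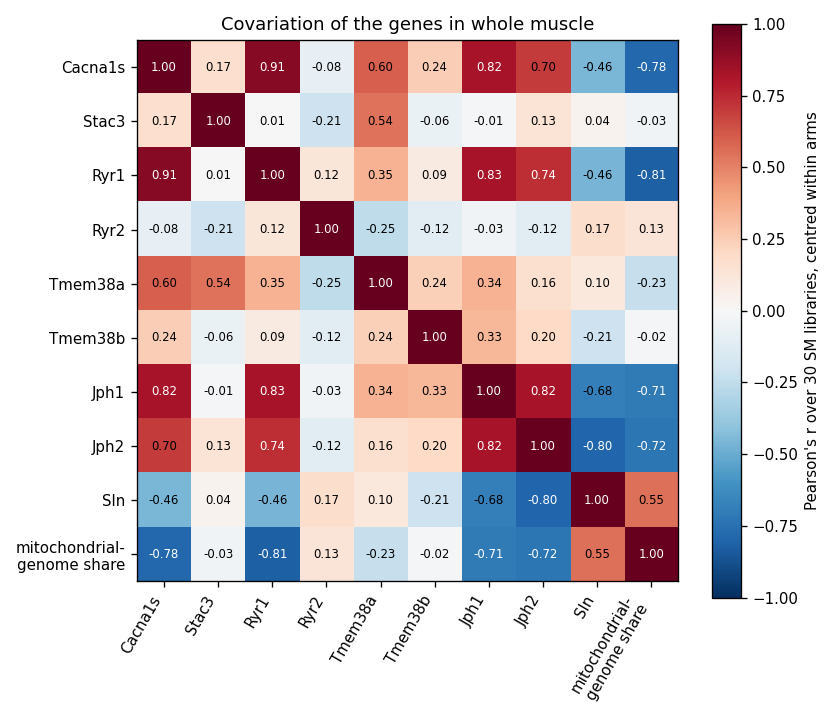
Pearson's r between the log2 levels of the 9 genes, and with the percentage of mitochondrial-genome counts, over 30 SM libraries centred within arms. Cacna1s, Ryr1, Jph1 and Jph2 form a block of r from 0.699 to 0.908, and for Tmem38b the highest r is 0.332.

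Among 8546 other genes with a mean of at least 5 CPM in SM, those most like Tmem38b were Zranb1 (r = 0.754), Wdr3 (0.741) and Eid1 (0.702). The genes most like Sln included Coro6 (0.88) and Mavs (0.874). Ryr1 ran with Cmya5 (0.922), Nomo1 (0.916) and Synm (0.911), and Cacna1s with Nomo1 (0.934), Mylk2 (0.923), the skeletal myosin light chain kinase, and Pygm (0.918), muscle glycogen phosphorylase. Jph1 ran with Pgm1 (0.925), Gpd2 (0.896) and AABR07005775.1 (0.889), Jph2 with AABR07005775.1 (0.94), Me1 (0.925) and Fam78a (0.922), and Tmem38a with Vamp1 (0.883), Rtn2 (0.875) and Gapdh (0.872). These r values, over 30 libraries centred within arms, describe likeness of pattern in libraries that share their scaling.

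Partners of the release machinery also differed between muscle and heart. Of 14 triad and voltage-sensor genes, 13 were lower and 1 higher in LV than in SM in both arms, beside 38.6 and 39.5% of all genes lower and 40 and 39.7% higher in sedentary and trained rats. Those shares also stand beside the LV counts of the other lists. The largest differences in sedentary rats were those of Cacng1, the gamma subunit of the skeletal channel (-15.63), Jsrp1, a junctional reticulum protein (-11.36), Cacnb1, its beta subunit (-7.87), and Bin1, which shapes the tubule (-6.51). In trained rats they were -15.51, -12.42, -7.93 and -6.66. Genes on the list of cardiac and other calcium entry and release leaned the other way. Of 10 with a row, 8 were tested in sedentary rats, 6 higher and 1 lower in LV, and 9 in trained rats, 5 higher and 2 lower. Those named next were all higher. Slc8a1, the sodium-calcium exchanger, was 4.15 and 4.13 higher, Cacna1c, the cardiac channel pore, 4.07 in both arms, Cacnb2, its beta subunit, 3.81 and 3.70, and Casq2, cardiac calsequestrin, 3 and 3.18. The median of the triad list was -3.01 in sedentary and -2.89 in trained rats, beside 0.04 and 0.01 over all genes.

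Reuptake and buffering genes were mixed, with 4 of 9 higher in LV in both arms, near the 40 and 39.7% of all genes, and 5 lower, beside 38.6 and 39.5%. Mrln, which encodes the pump inhibitor myoregulin, had almost no reads in the left ventricle libraries, so its fitted fold change is not given. Camk2b and Camk2a, kinase subunits, were -6.53 and -4.41 in sedentary rats and Ppp1r1a, a phosphatase inhibitor, -4.95. Strit1, whose peptide displaces sarcolipin and phospholamban from the pump, was 2.93 higher in sedentary and 3.07 higher in trained rats. The pump gene Atp2a2, named after its values were seen, was 1.64 and 1.48 higher. Of 10 store-operated entry and export genes 7 were lower in LV in both arms, among them the reticulum sensor Stim1 (-3.08 and -3.24), and 1, the pump Atp2b2, was higher (4.79 and 4.25). Of 8 mitochondrial calcium uptake genes 3 were higher and 5 lower in sedentary and 2 and 4 in trained rats, with Smdt1 at -1.29 in both arms and Mcu, the uniporter pore, at -0.79 and -0.76.

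In MT all 14 triad genes were lower than in SM in both arms, beside 33.1 and 35% of all genes. Less the median of all genes, Casq1, skeletal calsequestrin, had -9.43 and -8.71 and Trdn, triadin, -8.45 and -7.68. With edgeR, none of the 5 lists had a called gene in any training contrast. Of their genes, 50 were tested in SM, 50 in MT and 47 in LV, and 12, 2 and 4 had an unadjusted edgeR p under 0.05. DESeq2 called 3, 0 and 0 of them, beside 137 of 13570, 0 of 19281 and 1 of 14488 genes in all. For the interactions edgeR called 0 of 51 for MT and for LV against SM, with 10 and 1 at an unadjusted p under 0.05. DESeq2 called 1 and 0, beside 28 of 27684 and 1 of 15049 genes in all. The share of all genes at an unadjusted p under 0.05 was not computed, so the unadjusted counts are not read against it.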

How the data were processed

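Total RNA was sequenced after ribosomal depletion, per the labels' protocols with a Zymo RiboFree kit for SM (50 ng) and MT (10 ng) and for LV (100 ng) with an Illumina Ribo-Zero kit. The authors deposited whole-number counts per gene in 1 table for each sample type. The submitters' processing notes name FastQC 0.74, cutadapt 4.6, STAR 2.7.11a, HTSeq and the build mRatBN7.2, with no role or order. The annotation version and strand setting are not given in the sources used here, so overlapping genes cannot be told apart. Groups come from the labels, and no column belonged to another sample.

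Counts were tested with edgeR 4.0.16 (quasi-likelihood, robust, filterByExpr, trimmed-mean scaling) in R 4.3.3 over all genes. The fits were tested on simulated data. The main fits between sample types, and of the interactions, treated the libraries of 1 rat as separate. DESeq2 1.42.0, other scalings, filters, rat number as a block, rat-number ranges, thinning and leaving out libraries were alternatives. Two-sided permutation tests and exact intervals used scipy 1.17.1. Of each list up to 4 called genes with the largest change and a mean of at least 5 CPM could be named. The 3 non-member genes with the highest r were found for each member. They were named for Tmem38b and Sln, where r passed 0.8 and, after the values were seen, for Ryr2. For Sln, 1 such gene is not reported here. The members and lists were chosen with earlier results of these data known. Rats are separate animals by their numbers, and all library pairs of a group differed by more than counting noise (lowest chi-square per degree of freedom 1.23). Rat numbers pair libraries because 1 animal gave each set, although same-rat deviations correlated little (median r 0.0101 for MT with SM in 30 rats, 0.0248 for LV with SM in 14).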

Additional observations from a re-analysis of the deposited data

Results flagged for a closer look

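Among 18 LV groups examined (9 genes in each of 2 arms of 7 hearts), 5 had 1 library whose gap to the rest exceeded Dixon's 95% critical value. Chance flags about 1 group in 20 where values are normally distributed. Levels at or near 0 are not, and the genes share libraries, so the count is not read against that rate. Sln was highest in the sedentary heart of rat 19, at 8.72 nuclear CPM with the next at 1.2, and in the trained heart of rat 26, at 29.7 with the next at 0.871. Stac3 was highest in the sedentary heart of rat 20, at 0.808 with the next at 0.133, and in the trained heart of rat 17, at 0.439 with the next at 0.127. Ryr2 was highest in the trained heart of rat 17, at 7680 nuclear CPM with the next at 6770. The library of rat 17 thus held both the highest Stac3 and the highest Ryr2 of its arm, and its summed ventricular markers, 58200, were the highest of all 14 hearts.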

How the results depend on the processing

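The number of members called kept to within 1.5 times its value in 77 recomputations, or, for relations, its side of the threshold, with the following exceptions. For training in SM it was 1 and became 0 with no filter on low counts, 0 with totals of nuclear-encoded counts (chosen after seeing the data) and 0 among rats 17 to 32. Over all genes 26 of 24125, 48 of 13552 and 1 of 13662 were called in these settings. Leaving out libraries gave 0 to 1, with 0 in 22 of 30 refits. Across the other comparisons leaving out libraries, LV against SM being added after seeing the data, kept 0 in MT and LV training, 9 in LV against SM of sedentary and 8 to 9 of trained rats. The relation of Sln to atrial markers fell from r of 0.714 to 0.0715 without 2 libraries, and was 0.68 in Sed and 0.753 in ExT libraries alone.

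With the replicate block, pairing the libraries of 1 rat, Sln in LV against SM of trained rats was -3.47 (adjusted p 0.0347), and the block changed no other call. It turned the LV against SM training difference of Jph2 to -0.011. That value also turned with library totals (-0.058) and nuclear totals (-0.083), as did, with nuclear totals, Tmem38a there (-0.0058) and Jph2 in LV training (-0.036). In MT training the sign turned for Ryr1 with library totals (0.041), for Tmem38b (-0.22), Cacna1s (-0.0025) and Stac3 (0.052) among rats 2 to 16, and for Jph1 among rats 17 to 32 (-0.035), and in LV for Tmem38b among rats 17 to 32 (0.040). None of these was called in either setting, and the cause was not tested. Sln in MT against SM of trained rats lost its call with library totals (-0.64, adjusted p 0.161). No value was computed for Pln and the planned relation of Pln to slow-fibre genes was not run. Depth limits the MT libraries most: Tmem38b held 4 to 40 and Sln 0 to 14 counts there.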

Other observations

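Transcripts for mitochondrial calcium uptake were themselves lower in MT than in SM for most of the list. Of 8 genes, 5 were lower and 2 higher in sedentary rats and 5 lower and 3 higher in trained rats (edgeR), beside 33.1 and 35% of genes lower in all. Less the median of all genes, Smdt1, the uniporter's small regulatory subunit, had -5.82 and -4.98, Letm1 -4.41 and -4.10, Mcu -3.68 and -3.34, and Micu2 -3.92 and -3.24.

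On the list of cardiac and other calcium entry and release, 6 of 10 genes were higher in MT than in SM in both arms. This was near the 61.7 and 59.3% of all genes, and 4 were lower. Less the median of all genes the list's median was -0.46 and -0.12, Cacna1d had 3.15 and 3.55 and Casq2 -4.93 and -4.64. In the 14 LV libraries Ryr1 and Ryr2 had r of -0.797, centred within arms, with Ryr1 at 21 to 64 counts per library. Ryr1 also had -0.772 with Jph2 and -0.735 with Jph1, and from -0.39 to 0.209 with the other members. The mitochondrial-genome share of a library had r of 0.622 with Ryr1 and -0.431 with Ryr2 there. Its part in these values was not tested.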
